A study of Mus musculus with 12 samples.

Results

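miR-21, miR-146a, miR-146b and miR-155 are 4 microRNAs (miRNAs) known from inflammation, and they were followed through 12 small RNA libraries from mouse hippocampus. The members were the tags, that is the distinct read sequences of a library, that matched the annotated mouse hairpins of these 4 miRNAs exactly over their full length. They are 4 of 1087 annotated mouse miRNA names, of which 705 had at least 1 exact count over the 12 libraries. Of their 8 hairpin arms (5p and 3p of each), 7 had at least 1 exact count, and 4 passed the filter of at least 10 counts in at least 2 libraries (miR-21-5p, miR-21-3p, miR-146a-5p and miR-146b-5p). Levels are given as the percent of all exact miRNA counts of a library.

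All 3 families are known as miRNAs that inflammatory signals can induce. miR-146a is a target of NF-κB, and miR-146a and miR-146b repress the adaptors Irak1 and Traf6 and so act as a brake on Toll-like receptor and interleukin-1 signalling. miR-155 comes from a non-coding host transcript, is induced in activated macrophages and microglia, and represses Socs1, a brake on cytokine signalling, while miR-21 is present in many cell types, responds to STAT3 and AP-1, and represses Pdcd4. In brain they are known from microglia and astrocytes, and seizures are among the stimuli under which they have been studied.

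The mature sequences below, from RefSeq (GRCm38.p6) and with the seed (bases 2 to 8 from the 5′ end) in capitals, show which members can share targets. All 8 mature arms were matched by name in RefSeq, and the 5 shown are the arms on which the values turn.
miR-21a-5p: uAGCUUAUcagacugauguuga
miR-21a-3p: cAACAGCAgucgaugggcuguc
miR-146a-5p: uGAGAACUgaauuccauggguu
miR-146b-5p: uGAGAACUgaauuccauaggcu
miR-155-5p: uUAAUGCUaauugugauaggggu
miR-146a-5p and miR-146b-5p share the seed GAGAACU and their first 17 nt. They differ at 2 positions counted from the 5′ end, G18A and U21C with miR-146a first, so a tag must reach base 18 to tell them apart, and every deposited tag did. The seed of miR-21a-5p is shared in RefSeq with miR-21c, and that of miR-155-5p with no other mouse miRNA.

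The 4 hairpins lie at separate loci of GRCm38. Mir21a (chr11:86584067-86584158, minus strand) lies in exon 12, in the 3′ UTR, of the Vmp1 transcript Vmp1-201. Mir146, the gene of miR-146a (chr11:43374397-43374461, minus strand), overlaps no annotated gene, and the nearest, the lincRNA Gm12148, lies 11021 bp away on the opposite strand. Mir146b (chr19:46342762-46342870, plus strand) lies in intron 1 of Mfsd13a-202. Mir155 (chr16:84714140-84714204, plus strand) lies in exon 2 of Mir155hg, its host lincRNA.

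The libraries were made from hippocampi of individual male C57BL/6NCrl mice 6 to 8 weeks old, without genetic modification. One group was untreated (home cage, no ECS; libraries NT-1 and NT-2), and 5 groups were taken after electroconvulsive shock (ECS), a current that depolarizes neurons throughout the brain as a model of neuronal activity, with survival times of 0.5, 1, 3, 6 or 24 h. Lists of 5 values after ECS follow that order below. Each of the 6 groups has 2 libraries, 1 from the first time course (suffix -1) and 1 from the second (suffix -2), which the study sequenced separately. The suffixes are the deposited replicate numbers. For the 5 groups after ECS, known miRNA reads in the study's table rank the 2 libraries as here. For the untreated pair that table gives NT-1 more reads, while here NT-1 has 1067558 exact miRNA counts and NT-2 4282006. Paired fits, permutation tests, course comparisons and values set against a course's own untreated library rest on the deposited numbers. A fit with the untreated pair exchanged was not run. Neither a sham group nor sorted cells are among the samples analysed here, and in whole tissue fewer cells of a type and less RNA per cell cannot be told apart.

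Exact miRNA counts ran from 439336 (6h-1) to 4282006 (NT-2) per library, which was 10.1% to 69.6% of the accepted reads. NT-1 stands apart: 51.4% of its miRNA counts were tags of 18 or 19 nt, against 0.910% to 16.9% in the other 11 libraries. These short tags also split by time course, at 4.54% to 16.9% in the first without NT-1 and 0.910% to 3.78% in the second. The neuronal markers miR-124, miR-128, miR-137, miR-138 and miR-9 together held 14.3% to 31.2% of the miRNA counts in the first time course (up to 21.8% without NT-1) and 6.09% to 16.7% in the second, so neuronal miRNAs were abundant throughout.

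**Figure D1:**
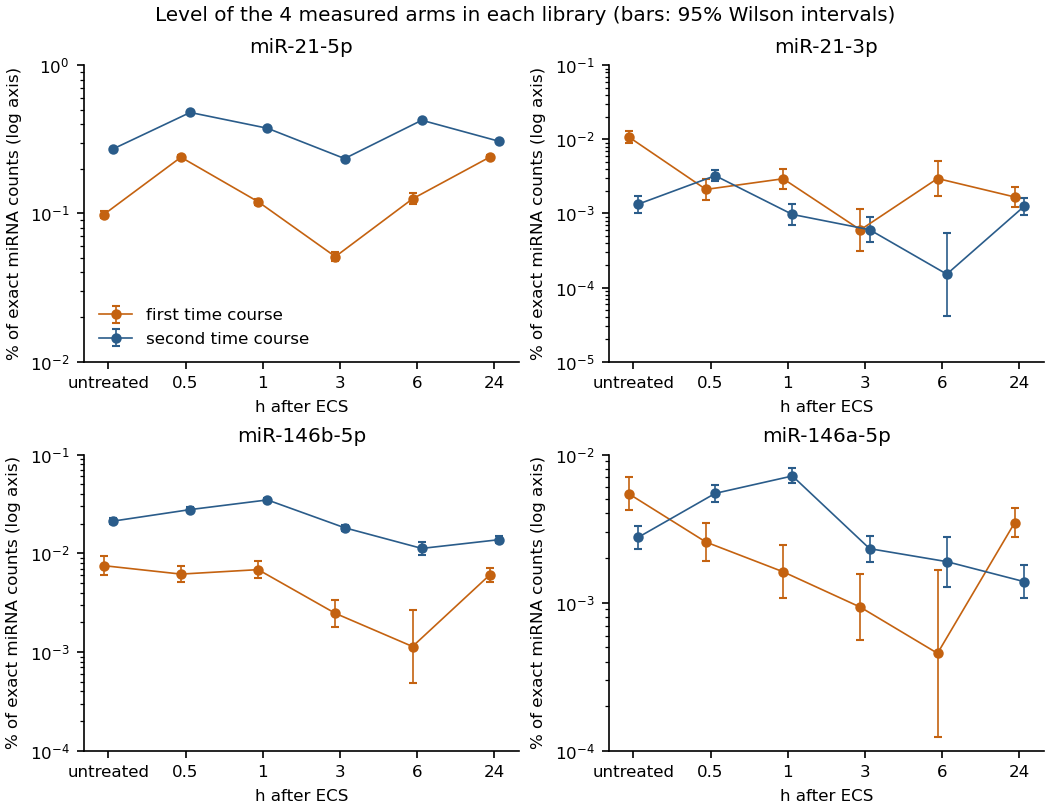
Percent of the exact miRNA counts (log axis) taken by miR-21-5p, miR-21-3p, miR-146b-5p and miR-146a-5p in each of the 12 libraries, by hours after ECS, with 95% Wilson intervals for counting error. miR-21-5p and miR-146b-5p were higher in the second time course at 6 of 6 time points, and the courses cross for miR-21-3p and miR-146a-5p.

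miR-21-5p, the guide strand of miR-21, was the most abundant member by far. It had 86593 exact counts over the 12 libraries and ranked 51st of 1065 arms by its mean share. In the untreated libraries it made up 0.0983% (NT-1) and 0.272% (NT-2) of the miRNA counts, a mean of 0.185% ± 0.123 (SD, n = 2). The Wilson 95% intervals, 0.0925% to 0.104% and 0.267% to 0.277%, lie far apart, so the gap between the 2 untreated libraries was larger than counting error. These libraries differ in mouse and in time course, which cannot be told apart here. The Wilson intervals cover counting error only, since reads amplified by PCR without molecular identifiers are not independent molecules.

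After ECS in the first time course, miR-21-5p stood at 0.240%, 0.120%, 0.0511%, 0.125% and 0.240% in the order of the 5 times. In the second it stood at 0.480%, 0.376%, 0.235%, 0.426% and 0.307%. The lowest library of either course was the one at 3 h, and the library at 0.5 h was well above the untreated one in both. The courses parted at 24 h, where the level was 2.44 times that of NT-1 but 1.13 times that of NT-2.

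miR-21-3p, the other strand of the same hairpin, had 550 counts and ranked 266th. In the first time course its counts were 115 in NT-1, then 37, 40, 9, 13 and 37 after ECS. In the second they were 57 in NT-2, then 126, 38, 25, 2 and 51. As a share of the miRNA counts it was 0.0108% in NT-1, above the 0.000600% to 0.00296% of the other 5 libraries of that course and above all 6 of the second, which spanned 0.000151% to 0.00323%.

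The 2 miR-146 5p arms, which carry the same seed, differed in level. miR-146b-5p had 5267 exact counts (rank 165) and miR-146a-5p 1008 (rank 252), and miR-146b-5p was the higher in all 12 libraries. In the untreated libraries miR-146b, its few 3p counts included, averaged 0.0143% ± 0.00970 (SD, n = 2) and miR-146a 0.00411% ± 0.00188 (SD, n = 2).

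miR-146b-5p had 80 counts in NT-1 and 108, 93, 37, 5 and 134 after ECS in the first time course. The second time course had 906 in NT-2 and 1079, 1361, 752, 148 and 564 after ECS. As shares these are 0.00114% to 0.00749% in the first course and 0.0112% to 0.0347% in the second. The lowest share of either course was at 6 h, in the library with the fewest miRNA counts of that course, and 6h-1 rests on only 5 counts of miR-146b-5p.

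For miR-146a-5p the counts were 58 in NT-1 and 45, 22, 14, 2 and 77 after ECS in the first time course. They were 118 in NT-2 and 213, 281, 96, 25 and 57 in the second. The shares, 0.000455% to 0.00543% and 0.00139% to 0.00716%, overlap between the courses. In the first course every library after ECS lay below NT-1, whereas in the second the libraries at 0.5 and 1 h lay above NT-2 and those at 3, 6 and 24 h below it.

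The 3p arms of miR-146 were at the edge of detection. miR-146a-3p had 1 count in all, in NT-2, and miR-146b-3p had 3, 2 of them in NT-2 and 1 in 3h-2. Both 5p arms thus carried nearly every read of their hairpin.

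miR-155 was almost absent from these libraries. A single exact count of miR-155-5p was found in 24h-2, out of 30022027 miRNA counts in the 12 libraries, and no tag matched miR-155-3p. For the 11 libraries at 0, the limit that a count of 0 allows (3 counts per library) runs from 7.01e-05% in NT-2 to 0.000683% in 6h-1. The share of 1 count in 24h-2 has a Wilson 95% interval of 4.30e-06% to 0.000138%. The number depended on exact matching but stayed small. Tags with up to 1 mismatch in the first 18 nt of miR-155-5p summed to 12 counts, which fell in 4 libraries: 2 in 0.5h-1, 4 in 24h-1, 5 in 1h-2 and 1 in 24h-2. Both untreated libraries had none, and a change after ECS was not detectable at this depth.

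Whether the members changed after ECS was asked at each time point and for the mean of the 5 times, in an edgeR quasi-likelihood fit over the 469 arms that passed the filter. No member was called at any time, and the share called among all arms was 0% at each time point and 0% for the mean, with Benjamini-Hochberg adjusted p of 0.05 as the threshold. At an unadjusted p under 0.05 there were 9, 2, 10, 9 and 7 arms at the 5 times and 24 for the mean. DESeq2 called 1, 0, 2, 0 and 0 arms at these times and 1 for the mean, none of them a member, against a background of 0.213% (0.5 h), 0.426% (3 h) and 0.213% (mean). With the libraries paired by time course DESeq2 called 0.426%, 0%, 1.07%, 0.64% and 0% of the arms at the 5 times and 0.213% for the mean, again without a member. In the edgeR fit without pairing the SEs of the member arms were 0.77 to 1.58 on the log2 scale. They limit how small a change that fit could see, and they include the difference between the time courses. With the libraries paired by time course in edgeR, the SEs for the mean of the 5 times were 0.62 (miR-146b-5p) to 0.73 (miR-146a-5p). Without pairing those of the same mean were 0.77 (miR-21-3p) to 1.22 (miR-146b-5p).

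miR-21-5p had a log2 fold change of 0.67 (SE 1.06, edgeR adjusted p = 0.999) for the mean of the 5 times, and 0.96, 0.28, 0.18, 1.04 and 0.89 at the single times. The sign at 3 h changed with the scaling and other settings: it was -0.38 with total miRNA scaling, and 8 of 14 alternatives gave a positive value, while both 3 h libraries lay below their own untreated library (0.520 and 0.861 times). Without NT-1 the mean was -0.016 and without NT-2 it was 2.15 in this fit, which does not pair the libraries. With the libraries paired by time course (the replicate block) the mean was 0.75 (SE 0.63, edgeR adjusted p = 0.796), and leaving out 1 library gave 0.46 to 0.84, with 0.68 without NT-1 and 0.84 without NT-2. Taken within time courses by the deposited numbers, the level of miR-21 was above that of the course's own untreated library in 8 of 10 libraries after ECS, the exceptions being both 3 h libraries. This count depends on which untreated library belongs to which course. Every first-course library after ECS (0.0517% to 0.242%) lay below NT-2 (0.274%), and every second-course one (0.235% to 0.483%) above NT-1 (0.109%). The difference of the log2 shares was 0.33 in the first course and 0.37 in the second (mean 0.35, exact permutation test over the 36 choices of 1 library per course as untreated, two-sided, p = 0.472, adjusted p = 0.472). The smallest p this exact permutation test allows is 0.0278.

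miR-21-3p had a log2 fold change of -1.62 after ECS for the mean of the 5 times (SE 0.77, edgeR p = 0.0555, adjusted p = 0.999). Without NT-1 it was -0.026 (SE 1.07). With the block it was -1.41, and -0.21 without NT-1. The lowest value of a single time was -2.40 at 3 h (SE 1.17).

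The fitted mean of miR-146a-5p was -0.25 (SE 0.92, edgeR adjusted p = 0.999) and that of miR-146b-5p 0.0059 (SE 1.22, edgeR adjusted p = 0.999). With total miRNA scaling they were -0.74 and -0.29, and with the block -0.59 and -0.23. Without NT-1 the mean of miR-146b-5p was -0.68 and without NT-2 it was 1.51, so neither its sign nor its size held. Leaving out the same libraries with the block gave 0.52 and -1.36 for miR-146a-5p and 0.17 and -0.57 for miR-146b-5p. Within time courses the log2 share of miR-146a after ECS less untreated was -1.92 in the first course and 0.10 in the second (mean -0.91, exact permutation test, two-sided, p = 0.333, adjusted p = 0.472). For miR-146b it was -1.01 and -0.14 (mean -0.57, exact permutation test, two-sided, p = 0.472, adjusted p = 0.472). For each of miR-146a and miR-146b, 2 of 10 libraries after ECS lay above their own untreated library. In the second time course these were the libraries at 0.5 and 1 h for both miRNAs.

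**Figure D2:**
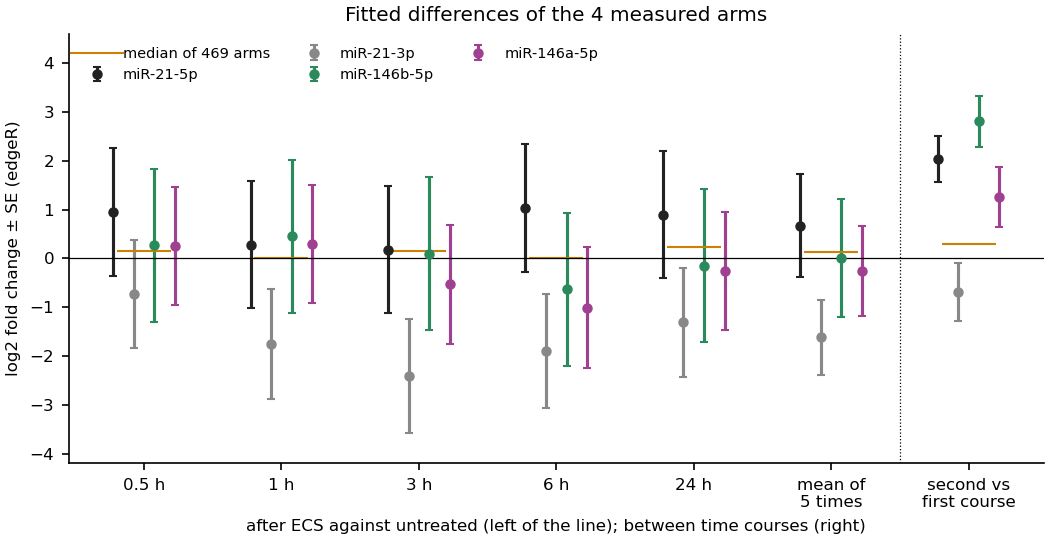
Fitted log2 fold changes (points) with their SE (bars) of the 4 measured arms at 5 times after ECS and for the mean of these times, each against untreated, and, right of the dotted line, for the second against the first time course. The horizontal orange marks give the median of the 469 arms. Left of the line the intervals of miR-21-5p, miR-146b-5p and miR-146a-5p span 0 at every time, while miR-146b-5p (2.80) and miR-21-5p (2.04) lie far above the median of 0.29 on the right.

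The 2 time courses differed in both abundant members. In the edgeR fit of the time course, which also holds the time point, 152 of the 469 arms were called between the courses, which is 32.4% of those tested, and 94 of them, 20% of those tested, were higher in the second. Without 1h-1 the number called was 92. Of the 4 member arms tested, 2 were called, both higher in the second course. Each of the 4 had at least 10 counts in at least 2 libraries of both courses, so none passed the filter through 1 course alone.

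miR-146b-5p was higher in the second time course by a log2 fold change of 2.80 (SE 0.52, edgeR adjusted p = 0.00219). The ratio of its shares at matched times was 2.82 in the untreated pair, then 4.50, 5.08, 7.36, 9.84 and 2.27 after ECS, so the second was higher at 6 of 6 times. miR-21-5p was higher by 2.04 (SE 0.47, edgeR adjusted p = 0.00726), with ratios of 2.77, 2.00, 3.13, 4.59, 3.39 and 1.28 and the second higher at 6 of 6 times. These ratios are of shares of all miRNA counts, while both log2 fold changes use TMM scaling. Scaled by the total of miRNA counts, the log2 fold changes were smaller, 2.19 for miR-146b-5p and 1.41 for miR-21-5p. Both stayed past the threshold in all 20 alternative fits, DESeq2 among them, which called 47.3% of the 469 arms, and in these fits the log2 fold change of miR-146b-5p ran from 2.19 to 3.05 and that of miR-21-5p from 1.41 to 2.29.

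miR-146a-5p had a log2 fold change of 1.25 (SE 0.62, edgeR adjusted p = 0.126) and was higher in the second course at 4 of 6 times, untreated and 24 h being the exceptions. miR-21-3p had one of -0.69 (SE 0.59, edgeR adjusted p = 0.372) and was higher in the second course at 2 of 6 times. The median of all 469 arms was 0.29 with TMM scaling and -0.30 when counts were scaled by the total of miRNA counts. With that scaling the split of the calls turned from 94 higher and 58 lower to 49 higher and 113 lower (34.5% of the arms called), while miR-146b-5p (2.19) and miR-21-5p (1.41) stayed higher and called.

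Several values moved with the time course beside these 2 arms. The median share of miR-142-5p, of a miRNA known from blood cells and microglia, was 0.503% in the first and 0.0413% in the second course (log2 fold change -2.60, SE 0.58, edgeR adjusted p = 0.00620). Of the 8 tested arms of the 7 blood, macrophage and microglia markers (miR-142, miR-223, miR-150, miR-144, miR-451a, miR-486 and miR-511), 2 were called, miR-142-5p and miR-144-3p, both lower in the second, beside 32.4% of all arms. The other 6 were not called, and most had log2 fold changes above 0: miR-486-3p 2.42, miR-150-3p 1.71, miR-451a-5p 1.59, miR-486-5p 0.58, miR-511-3p 0.038 and miR-144-5p -1.50. The median of the 8 was 0.31, beside 0.29 for all arms. The summed level of the list, most of it miR-142-5p, was 0.133% to 1.15% in the first and 0.0380% to 0.257% in the second course. No arm of this list was at 0 in all libraries, but miR-142-3p, miR-223-5p and miR-511-5p had no count in the first course. The part of these cells, of the tag lengths and of the depth in the difference of miR-146b-5p and miR-21-5p was not tested.

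Of the other marker lists, none of the 4 tested oligodendrocyte arms (miR-219a and miR-338), the 2 endothelial arms (miR-126a) and the 3 muscle arms (miR-1a, miR-133a and miR-206) was called between courses, where 32.4% of all arms were. The summed levels in the first and second course were 0.273% to 1.40% and 0.392% to 1.82% for oligodendrocytes and 0.0143% to 0.0364% and 0.0102% to 0.0249% for endothelium. For muscle they were 0.258% to 1.10% and 0.771% to 1.69%, nearly all of it miR-1a-3p. NT-1 set the lowest first-course values of oligodendrocytes and muscle, which without it were 0.744% and 0.611%. Of the 10 neuronal arms 1 was called, miR-138-5p, which was lower in the second course (log2 fold change -1.80, SE 0.46, edgeR adjusted p = 0.0109). The liver marker miR-122-5p was called higher (2.27), at 0.000910% to 0.0247% in the first and 0.00651% to 0.0321% in the second course. No arm of any marker list was called after ECS.

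Both miR-146 arms can be weighed against each other within a library, which needs no scaling. This ratio was chosen after the values were seen. Exact counts of miR-146b-5p over miR-146a-5p ran from 1.38 to 4.23 (median 2.45) in the first time course and from 4.84 to 9.89 (median 6.80) in the second. The ratio was higher in the second course at 6 of 6 times, by a geometric mean of 2.85-fold. It restates the course differences of both arms given above and carries no test.

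The same ratio can be read from base 18 alone, in all reads that begin with the shared 17 nt, whatever follows. A marks miR-146b and G marks miR-146a, and the bases C and U, which neither has, made up 59 of 9133 such reads (0.646%), which gives the rate of other bases at that place. The ratio of A to G was 1.54 in NT-1 and 2.00, 5, 2.60, 1.13 and 1.64 after ECS in the first course, and 8.11, 5.34, 4.96, 8.53, 8.13 and 10.4 in the second. It was higher in the second course at 5 of 6 times, at 1 h being nearly equal. After ECS the ratio was 1.12 times that of untreated libraries.

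**Figure D3:**
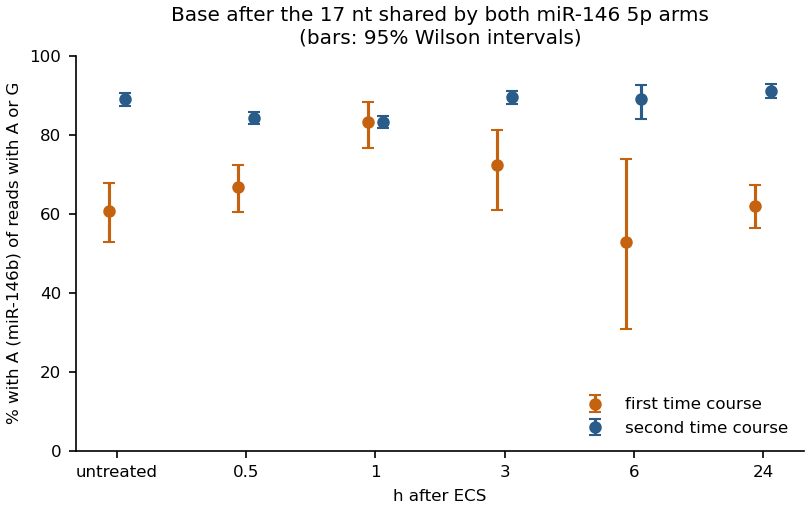
Percent of reads with A (miR-146b) among those with A or G at the base after the 17 nt shared by both miR-146 5p arms, per library, with 95% Wilson intervals. The libraries of the second time course lie between 83.2% and 91.2%, those of the first between 52.9% and 83.3%, with 17 reads in 6h-1.

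miR-21-5p alone had enough counts (at least 100 in every library) for the features of its tags to be tested. Its 5′ end, which sets the seed, was nearly invariant, since 99.4% of the exact counts began at the same base, with 97.6% to 99.5% in the libraries of the first course and 99.3% to 99.5% in the second. The 3′ end was spread over 4 positions. The 4 commonest tags are shown with the bases after position 20 in capitals, since they differ only there.
20 nt: uagcuuaucagacugauguu
21 nt: uagcuuaucagacugauguuG
22 nt: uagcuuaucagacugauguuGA
23 nt: uagcuuaucagacugauguuGAC
The 22 nt tag, which is the RefSeq mature form, held 34.8% of the exact miR-21-5p counts over all libraries, the 20 nt tag 27.2%, the 21 nt tag 21.1% and the 23 nt tag 14.7%.

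The forms were shared out differently in the 2 time courses. The 23 nt tag held 117 counts (0.865%) in the first and 12613 (17.3%) in the second, while the 20 nt tag held 35.9% and 25.6%. In 6h-1, 78.8% of the counts were the 20 nt tag and 0.544% the 22 nt tag. The 23 nt share of the second course was 4.36% in NT-2 and 19.96%, 20.1%, 27.3%, 5.53% and 19.3% after ECS, and in no library of the first course did it pass the 4.10% of NT-1.

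The mean length of exact miR-21-5p tags was 20.5 nt ± 0.355 (SD, n = 6) in the first course and 21.4 nt ± 0.250 (SD, n = 6) in the second, with the second longer at 6 of 6 times (exact permutation test over the 64 swaps, two-sided, p = 0.03125, adjusted p = 0.0521). The share of tags that stop at the commonest 3′ end was 16.4% ± 9.38 (SD, n = 6) and 36.7% ± 2.30 (SD, n = 6), also higher at 6 of 6 times (exact permutation test, two-sided, p = 0.03125, adjusted p = 0.0521). With 5 features tested, 3 at the smallest p of 0.03125 give an adjusted p just over 0.05. Neither moved with ECS beyond the spread, by 0.34 nt for the mean length (exact permutation test, two-sided, p = 0.222) and by -0.71 percentage points for the commonest end (exact permutation test, two-sided, p = 0.833).

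**Figure D4:**
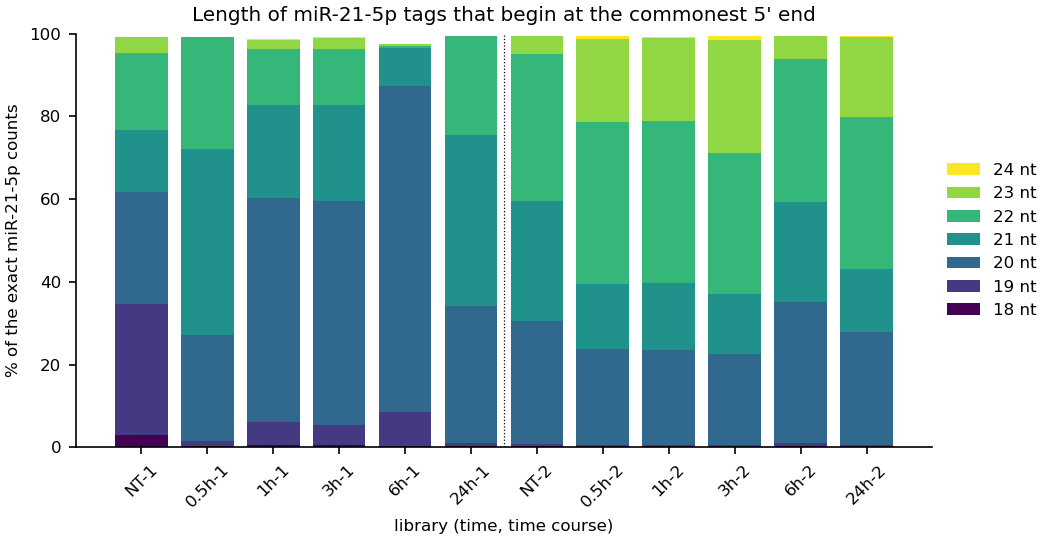
Stacked percent of the exact miR-21-5p counts by tag length (18 to 24 nt, tags at the commonest 5′ end) in each library, the first time course left and the second right of the dotted line. The 23 nt form takes 4.36% to 27.3% of the counts in the second course and 0.119% to 4.10% in the first.

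The share of miR-21-3p in the exact counts of the miR-21 hairpin was 9.88% in NT-1 and 0.690% to 2.39% in the other 5 libraries of the first course, against 0.0356% to 0.669% in the second. The second course had the lower share at 6 of 6 times (exact permutation test, two-sided, p = 0.03125, adjusted p = 0.0521). After ECS it was lower by 4.28 percentage points than in the untreated libraries (exact permutation test, two-sided, p = 0.0556, adjusted p = 0.208), a difference that NT-1 sets, since NT-2 had 0.486%. The 5′ end of miR-21-3p was not fixed: its commonest start held 54.2% of the counts, so its reads carry more than 1 seed.
20 nt from the RefSeq start, 206 counts: cAACAGCAgucgaugggcug
22 nt from 1 base later, 66 counts: aACAGCAGucgaugggcugucu
20 nt from 2 bases later, 62 counts: aCAGCAGUcgaugggcuguc
Capitals mark bases 2 to 8 of each tag. Both miR-146 5p arms, in contrast, had 98.2% (miR-146a-5p) and 99.7% (miR-146b-5p) of their exact counts at 1 start.

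Exact matching leaves out reads with bases added after the genomic 3′ end, which were counted separately among reads whose first 18 nt match 1 miRNA arm only. Of the 7689 such reads of miR-146b-5p, 14.3% were an exact stretch followed by a single A, rank 17 of the 422 arms that had 100 or more reads, whose median was 3.16%. miR-146a-5p had 5.38% with a single A and 7.01% with a single U, miR-21-5p 3.51% and 0.898%, and miR-21-3p 3.25% and 2.89%. This listing was made after the values were seen and carries no test.

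The added A of miR-146b-5p followed base 21 of the arm in 955 reads, where the hairpin goes on with U. It was frequent in both time courses, 11.3% in the first and 14.5% in the second, and in 11 libraries it ranged from 7.14% (NT-1) to 16.9% (24h-2), while 6h-1 had 9 reads in all and none with a single A. For miR-21-5p the single A followed base 23 in 1740 reads and base 22 in 1314. Its share was 0.415% to 2.63% in the libraries of the first course and 0.883% to 7.71% in the second, the highest in 0.5h-2. The share of miR-21-5p reads with 1 to 3 added bases was 9.52% ± 3.69 (SD, n = 6) and 7.02% ± 3.74 (SD, n = 6) in the 2 courses (exact permutation test, two-sided, p = 0.438), and 5.43 percentage points higher after ECS than untreated (exact permutation test, two-sided, p = 0.0833, adjusted p = 0.208).

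**Figure D5:**
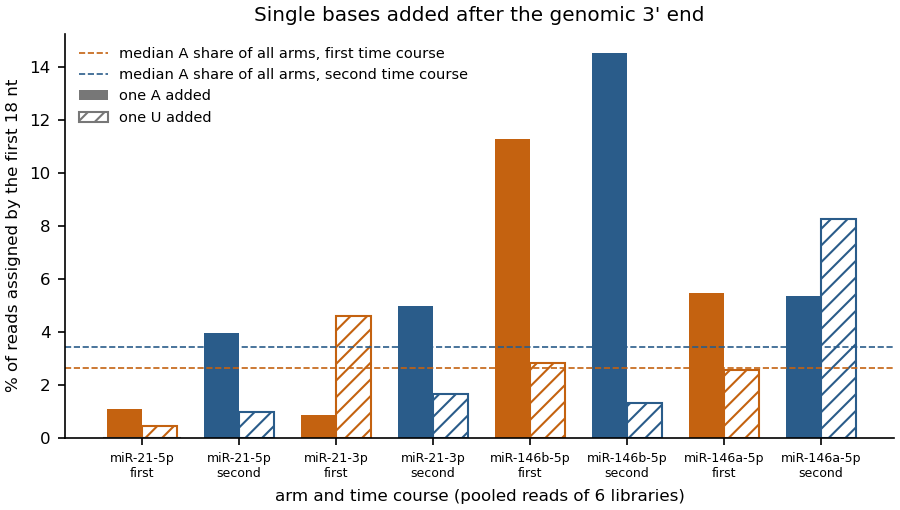
Percent of the reads assigned by their first 18 nt that carry a single A (filled bars) or a single U (hatched bars) after the genomic 3′ end, for the 4 measured arms in the pooled reads of each time course, with the median A share of all arms with at least 100 reads as dashed lines. miR-146b-5p stands at 11.3% and 14.5% for A, above the medians of 2.64% and 3.42%.

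The arms whose share moved most like that of miR-21 over the 12 libraries, once each time course was set to its own mean on the log2 scale, were miR-221-5p (Pearson r = 0.90), miR-9-3p (r = 0.88) and miR-17-3p (r = 0.80), among 211 other arms that had 10 or more counts in each library. The median r of these arms was 0.11. Within the first course alone the values were 0.97, 0.95 and 0.93, and within the second 0.49, 0.66 and 0.74. The points share libraries, depth and a common total, and this is a description of 12 libraries. The other members had fewer than 10 counts in some library and were not compared in this way.

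Of the other miRNAs known from inflammation or from the response to injury, a list of 12 (miR-9, miR-31, miR-34a, miR-124, miR-125a, miR-125b, miR-132, miR-147, miR-187, miR-210, miR-221 and miR-222) gave 20 tested arms. None was called after ECS, and the median log2 fold change for the mean of the 5 times was 0.09, beside 0.13 for all 469 arms. Between the time courses 3 of the 20 were called, beside 32.4% of all arms: miR-125a-5p (2.19, SE 0.61, edgeR adjusted p = 0.0162) and miR-221-5p (1.86, SE 0.53, edgeR adjusted p = 0.0180) were higher in the second, and miR-125b-3p (-1.48, SE 0.44, edgeR adjusted p = 0.0224) lower. The median of the list was 0.36, beside 0.29 for all arms.

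The 4 most abundant arms of that list were above or near miR-21-5p in level. miR-124-3p, the neuronal miRNA that also keeps microglia quiescent, had a median share of 7.21% in the first and 2.46% in the second course, and miR-9-5p one of 1.86% and 0.776%. miR-125b-5p had 0.847% and 0.487%, and miR-222-3p 0.407% and 0.205%. For all 4 the ranges of the courses overlapped and the fit gave no call between them.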

How the data were processed

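Small RNA of hippocampus was gel-purified and sequenced by the authors on an Illumina Genome Analyzer IIx, and adapters were trimmed with their miR-Intess pipeline. The deposited files list each distinct insert of at least 18 nt with its raw count, neither aligned nor normalized by the authors (their own mapping used NCBI mouse assembly 37). Here tags were assigned to the hairpins of GENCODE M21 (GRCm38) that they matched exactly over their length, and tags matching several arms were split equally (0.899% to 4.83% of the miRNA counts of a library came from tags shared between miRNAs). Loci come from GENCODE, mature sequences and seeds from RefSeq.

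Arms that reached 10 counts in 2 or more libraries were fitted with edgeR 4.0.16 (TMM, glmQLFit, R 4.3.3), with the 6 groups, or with the time course and the time point, as terms, and p-values were adjusted by Benjamini and Hochberg over all 469 arms. DESeq2 1.42.0 was an alternative. Single values were tested by exact permutation in Python 3.11.15 (scipy 1.17.1). Scripts were tested on simulated data. In the study's results the suffixes -1 and -2 mark the 2 time courses, and the deposited replicate numbers were taken as these suffixes. For the untreated libraries the study's table of reads has the larger library under -1, the reverse of the deposited numbers. Deviations of same-numbered libraries from their group means correlated at 0.522 on average (0.303 to 0.785 over 15 pairs of time points), so the block by number is a pairing. Chi-square per degree of freedom was at least 1308 for every pair of libraries of a group, so no pair is a repeat of 1 library. Accepted reads ran from 1897490 to 7657222 per library.

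Alternatives were other scalings and filters, DESeq2, the replicate block, tags of 1 miRNA only, the first 18 nt of a tag, other denominators, and leaving out each library. Named arms were all arms of the members, the 3 arms most like a member with at least 10 counts in every library, and the 4 most abundant arms of the other inflammation list. The members and lists were chosen with earlier results of these data known.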

Additional observations from a re-analysis of the deposited data

Results flagged for a closer look

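Of 26 sets of 6 libraries (13 measures of the members in each time course), 3 had 1 library farther from the rest than Dixon's 95% limit for 6 values, where chance gives about 1.3. The 2 sets with NT-1 rest on the same 115 counts of miR-21-3p, so they are not separate events. In the first time course miR-21-3p made up 0.0108% of the miRNA counts in NT-1 and 0.000600% to 0.00296% in the other 5 libraries, a gap of 0.768 of the range. The share of miR-21-3p in the miR-21 counts was 9.88% in NT-1 and 0.690% to 2.39% in the others, a gap of 0.815 of the range. NT-1 is also the library with 51.4% of its miRNA counts at 18 or 19 nt, and the part of that in both values was not tested. In the second time course 99.27% of the miR-21-5p counts began at the commonest base in 1h-2, against 99.43% to 99.52% in the others. With the untreated libraries assigned by their deposited numbers, no member moved one way after ECS in every library of one time course and the other way in every library of the other.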

How the results depend on the processing

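Of 402 recomputed values, 359 kept their direction and their side of the threshold, and no member was called after ECS in any of the 436 fitted comparisons of a member arm with untreated (smallest adjusted p 0.210). With the replicate block, which pairs the libraries of a time course, the mean log2 fold changes after ECS were 0.75 (miR-21-5p), -1.41 (miR-21-3p), -0.59 (miR-146a-5p) and -0.23 (miR-146b-5p), all with edgeR adjusted p of 0.750 or more, and the block in edgeR changed no call. In DESeq2 with the block the calls over all arms were 2 at 0.5 h, 5 at 3 h, 3 at 6 h and 1 for the mean, and in DESeq2 without it 1 at 0.5 h, 2 at 3 h and 1 for the mean. No filter gave 1 at 3 h and 5 for the mean. Leaving out libraries gave 0 calls at each time, 0 to 1 for the mean, also with the block, and 92 (without 1h-1) to 157 between the courses.

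The mean of miR-146b-5p after ECS, 0.0059, had no stable sign. It was -0.29 with total scaling, -0.21 without a filter, -0.11 with at least 10 counts in 6 libraries, -0.027 with tags of 1 miRNA only and also with the first 18 nt of tags, -0.27 in DESeq2 with the block, and -0.69 to 1.51 with 1 library left out. With the block and 1 library left out (an alternative added after seeing the data) it was 0.17 without NT-1, -0.29, -0.18, -0.36, -0.086 and -0.44 without the first course's libraries in the order of the 5 times, -0.57 without NT-2, and -0.20, -0.46, -0.50, -0.65 and -0.39 without the second's. For the other members, leaving out 1 library gave -0.016 to 2.15 for miR-21-5p (0.46 to 0.84 with the block), -2.35 to -0.026 for miR-21-3p (-2.20 to -0.21) and -0.93 to -0.088 for miR-146a-5p (-1.36 to 0.52), and -1.92 to 0.10 for the log2 share of miR-146a within courses. The untreated share of miR-146a was 0.00157% of accepted reads. miR-155 had 10 counts by the first 18 nt and 12 with up to 1 mismatch, both chosen after seeing the data. The causes were not tested.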
